A study of Mus musculus with 2 samples.

Results

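Tubular injury markers are genes read as signs of tubule damage, and many are low in most cells of a healthy kidney tubule and high after damage. The set described here holds 10 mouse genes chosen by name from the platform annotation, Lcn2, Havcr1, Spp1, Clu, Cd44, Vcam1, Icam1, Sox9, Sox4 and Prom1, among 18193 named genes on the array. No probe set named Spp1, the gene of osteopontin, in the annotation used, so Spp1 was not analysed here. The other 9 genes were read by 27 of 45037 probe sets. Of these 9 genes, 5 had a signal above the floor on both arrays, Lcn2, Havcr1 and Cd44 passed it on the cystic array only, and Sox9 was under it on both.

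The study compared whole kidney RNA of inv mice, a model of nephronophthisis type 2, on Affymetrix arrays, with 1 array for each of 2 groups. The control group was +/+ at the inv locus and the cystic group was inv/inv, and both carried the transgene inv-deltaC::GFP, which encodes inversin without its C-terminus. Mice were 4 weeks old per the series design, and the labels of the cystic array add an age of 28 days and the female sex, while those of the control array give no sex. The promoter of the transgene and the number of kidneys behind each array are not stated in the labels. With 1 array per group there was no replicate check and no test was possible, so every difference below compares these 2 arrays, and their number limits the precision.

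For the mutated gene Invs, the signal at the brightest of its probe sets was 118 (control) and 15.9 (cystic), at least 1.91-fold lower. Neither of the other Invs probe sets reached a floor, so the gene check rests on 1 probe set. The cystic array went against its label of female sex. Xist, the RNA of the inactive X chromosome, read 387 in the control and 57.4, under the floor, in the cystic kidney. The Y-linked genes Uty (206 and 198), Kdm5d (151.5 and 194) and Eif2s3y (132 and 141.5) had signals above the floor on both arrays, in the order control and cystic. Sex and genotype therefore cannot be told apart here. The control array carried both Xist and Y-linked signal, a pair that RNA of 1 mouse does not normally give.

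Lcn2 encodes lipocalin 2, a secreted carrier of iron-binding siderophores that injured distal nephron cells release into urine. Havcr1 encodes kidney injury molecule 1, a phosphatidylserine receptor on the surface of injured proximal tubule cells that lets them take up dead cells. Clusterin, the product of Clu, is a secreted chaperone. Cd44 is the hyaluronan receptor and also binds osteopontin, and Vcam1 and Icam1 bind integrins of leukocytes. Sox9 and Sox4 are transcription factors with an HMG box, active in kidney development, and Sox9 is switched on in tubule cells during repair. Prom1 encodes prominin 1, a membrane protein of protrusions that marks progenitor-like tubule cells in human kidney.

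The stretch of DNA before the start of a gene is shown for 2 markers that rose, Lcn2 and Icam1, and for Prom1, which did not pass the limit. Each is the 250 bases before a RefSeq start in GRCm38.p6, 5′ to 3′ on the strand of the gene. The windows are chr2:32387740-32387989 on the minus strand for Lcn2, chr9:21015690-21015939 on the plus strand for Icam1 and chr5:44101737-44101986 on the minus strand for the first start of Prom1. Capitals mark matches on either strand to GGG and CC with any 5 bases between them, letters that many binding sites of the inflammatory factor NF-kB share, and to TTCNNNGAA, the palindrome of STAT factors.
Lcn2: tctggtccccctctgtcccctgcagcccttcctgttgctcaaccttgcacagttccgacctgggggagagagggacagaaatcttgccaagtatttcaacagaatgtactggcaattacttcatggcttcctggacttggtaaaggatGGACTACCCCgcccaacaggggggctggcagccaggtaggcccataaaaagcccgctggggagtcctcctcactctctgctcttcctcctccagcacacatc
Icam1: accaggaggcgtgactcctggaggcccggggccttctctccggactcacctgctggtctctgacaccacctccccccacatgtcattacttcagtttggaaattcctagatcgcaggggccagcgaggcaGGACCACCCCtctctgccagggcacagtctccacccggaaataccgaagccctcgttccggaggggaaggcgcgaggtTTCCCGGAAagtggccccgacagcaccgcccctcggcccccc
Prom1: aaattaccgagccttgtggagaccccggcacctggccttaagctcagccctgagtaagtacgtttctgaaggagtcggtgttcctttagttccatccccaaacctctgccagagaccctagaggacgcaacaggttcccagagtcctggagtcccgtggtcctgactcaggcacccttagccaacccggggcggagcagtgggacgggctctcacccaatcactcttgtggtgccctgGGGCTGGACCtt
The first of these motifs was found at positions -102 to -93 before the start of Lcn2 and -120 to -111 before Icam1. Before Prom1 it was found at -12 to -3, and at -116 to -107 before a second start. It was also found once before Cd44 at -45 to -36, and no window of Havcr1 or Sox4 had it. The motif occurs in 45.8% of all 32851 promoter windows of this length, so a match is common. Prom1 had matches without a 2-fold difference, and Havcr1 and Sox4 rose without a match. The palindrome TTCNNNGAA was present before Icam1 at -42 to -34 and in 7.02% of all windows. The stricter NF-kB consensus, present in 7.25% of windows, had no match in the windows of Lcn2, Icam1, Prom1, Cd44, Havcr1 and Sox4. Both NF-kB patterns require GGG, so sites without these letters were not searched for and may lie in the windows unmarked. No window was listed for Clu, Vcam1 or Sox9. The matches are a description of letters and do not show binding.

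Of the 10 markers 8 were measured, and 7 of these rose in the cystic kidney. Rising means a signal at least 2-fold higher than in the control kidney. They were Lcn2, Havcr1, Clu, Cd44, Vcam1, Icam1 and Sox4. Prom1 was 1.23-fold higher, short of the limit, and no measured marker fell. Across all 12015 measured genes 7.06% rose and 3.78% fell. A gene above the floor only in the cystic kidney had to be higher there, so the count is given again for the 5 genes above both floors. Of these 4 rose and none fell, beside 6.15% and 3.97% of all 10668 genes above both floors, and their median log2 ratio (cystic minus control) was 2.16, beside 0.08 for all such genes. The markers were picked as injury genes with earlier results of these data known, so these counts describe them and are no independent evidence. In whole tissue, a change in the number of cells of a type and a change in RNA per cell cannot be told apart.

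**Figure D1:**
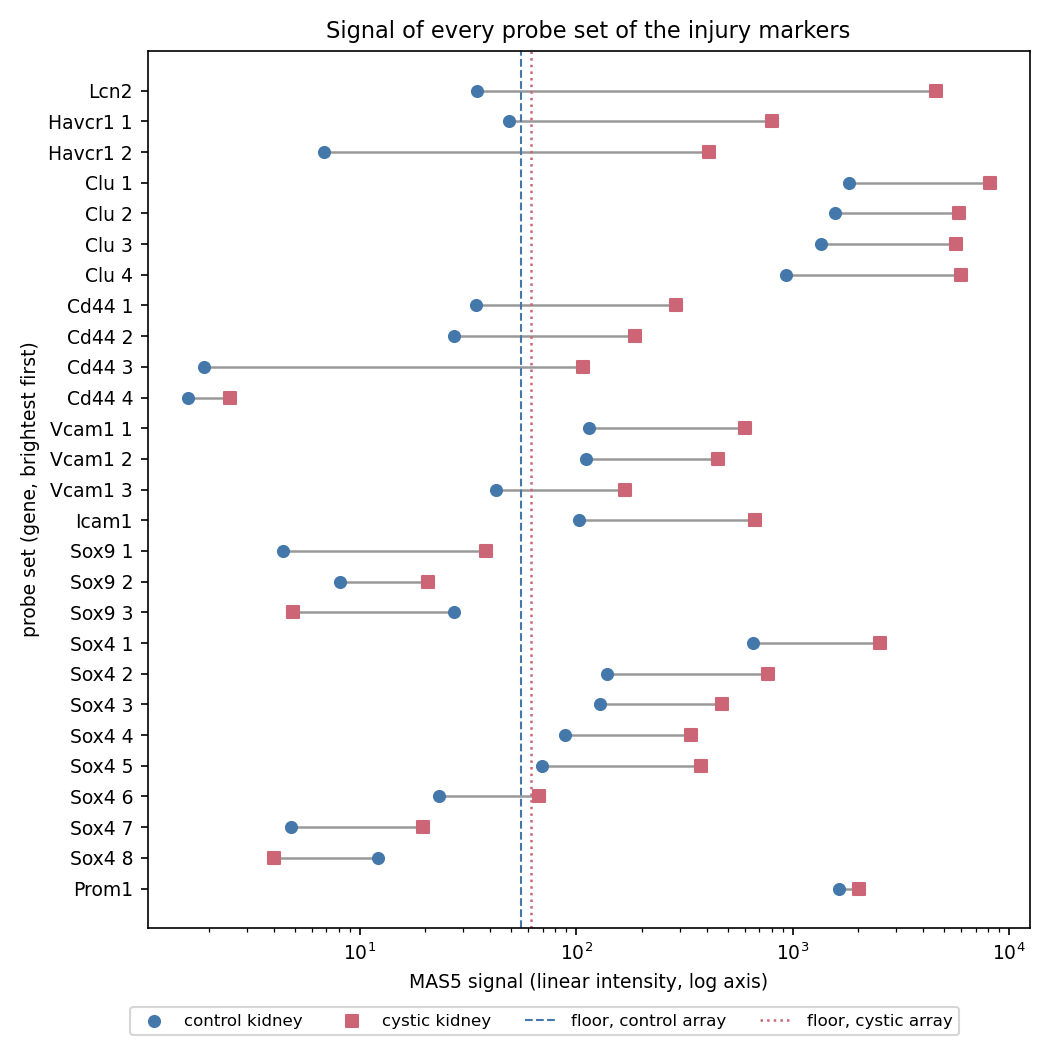
Linear MAS5 signal (log axis) of each of the 27 probe sets in the control kidney (blue circles) and the cystic kidney (red squares), 1 array each, with the floor of each array as a vertical line. Lcn2 spans 34.7 to 4610.3, Clu lies high on both arrays, and all 3 Sox9 probe sets lie under both floors.

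Among the secreted markers, Lcn2 was read by 1 probe set, whose signal was 34.7 in control kidney and 4610.3 in cystic kidney. The control signal was under the floor of 55.4, which is the median signal of that array, so Lcn2 was at least 83.2-fold higher. In the control kidney 39.1% of probe sets had a lower signal than Lcn2, and in the cystic kidney 99.5% did. The marker thus went from the lower part of the control array to among the brightest of the cystic one.

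Clu was bright already in the control kidney, where its 4 probe sets had signals of 934, 1352, 1565 and 1815. In the cystic kidney the same probe sets had signals of 5982, 5689, 5889 and 8120.1. Every probe set was higher in the cystic kidney, by 6.40-fold, 4.21-fold, 3.76-fold and 4.47-fold in the same order. The log2 ratios ran from 1.91 to 2.68 with an SD of 0.33 between probe sets, which share the same RNA and are a technical repeat. Lcn2 and Clu therefore rose from different starting points, one under the floor and one above 94.2% of all probe sets at its dimmest. The brightest Clu probe set lay above 99.95% of the probe sets of the cystic array. All Clu probe sets and the single probe sets of Lcn2 and Prom1 are of a kind marked by the maker as able to bind more than 1 transcript.

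Of the membrane markers, Havcr1 was under the floor in the control kidney at both its probe sets. The brighter one read 48.6 in control kidney and 799 in cystic kidney, at least 14.4-fold higher. The second had 6.8 and 412, at least 7.43-fold higher. Both probe sets passed the floor only on the cystic array, which fixes their direction, and each bound is set by the cystic signal alone. Lrp2 and Cubn, which encode megalin and cubilin, the uptake receptors of the proximal tubule where Havcr1 is known to be made after injury, had log2 ratios of -1.22 and -1.04.

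Prom1 was bright in both kidneys, reading 1635 in control and 2016 in cystic kidney. The log2 ratio of 0.30 was close to the pooled SD of 0.29 between probe sets of a gene, taken over 4694 genes. A single probe set read Prom1, so no second value bears on it. Its relative Prom2 had a signal of 64.2 in the control kidney and 23.6, under the floor, in the cystic one, a bound of -0.05 on the log2 scale from which no size can be read.

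All 3 adhesion molecules rose, with Icam1 and Vcam1 above both floors at their brightest probe sets and Cd44 read as a bound. Icam1, the ligand of leukocyte beta2 integrins, read 103 in control and 666 in cystic kidney, 6.49-fold higher. Vcam1, the ligand of integrin alpha4, was read by 3 probe sets. Their signals were 114, 111 and 42.5 in the control kidney and 604, 453 and 167 in the cystic kidney, where the 42.5 is under the floor. The differences were 5.28-fold, 4.08-fold and at least 3.02-fold. All 3 Vcam1 probe sets were past the limit and none was close to equal.

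Cd44 was under the floor in the control kidney at all 4 of its probe sets. Its brightest probe set read 34.5 in control and 288.5 in cystic kidney, at least 5.21-fold higher. The second had 27.3 and 186, at least 3.35-fold higher, and the third had 1.9 and 107, at least 1.93-fold higher, a bound that does not reach the limit. The fourth was under the floor on both arrays, with 1.6 and 2.5. Cd44 is spliced into many forms, and which forms these probe sets read was not examined.

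The Sox factors differed in whether they could be read at all. Sox4 was read by 8 probe sets, of which 5 lay above both floors. These 5 had signals of 657, 139, 128.5, 88.2 and 69.4 in the control kidney and 2530.5, 765, 473, 339 and 378 in the cystic kidney. All 5 rose, with log2 ratios of 1.95, 2.46, 1.88, 1.94 and 2.45 in the same order. A further probe set had 23.2 and 67.5, a bound of 1.22-fold, and the last pair were under the floor on both arrays. Sox4 was 3.85-fold higher at its brightest probe set.

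Sox9 gave no usable signal. Its 3 probe sets had signals of 4.4, 8.1 and 27.3 in the control kidney and 38.1, 20.6 and 4.9 in the cystic kidney, all under the floors of 55.4 and 61.9. The first 2 were higher and the third lower in the cystic kidney, so no direction is given, and the values do not show that Sox9 is absent. Of 18 other Sox genes 7 were measured, and none was past 2-fold in either direction, which is close to the 6.15% and 3.97% of all genes above both floors and says little about this family. Sox18, a factor of vessel endothelium, had a log2 ratio of 0.97 and Sox17 0.50, while Sox6 had -0.23 and Sox13 -0.03. Sox10 (0.31) and Sox7 (0.08) lay between these, and the median of the 7 was 0.20.

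**Figure D2:**
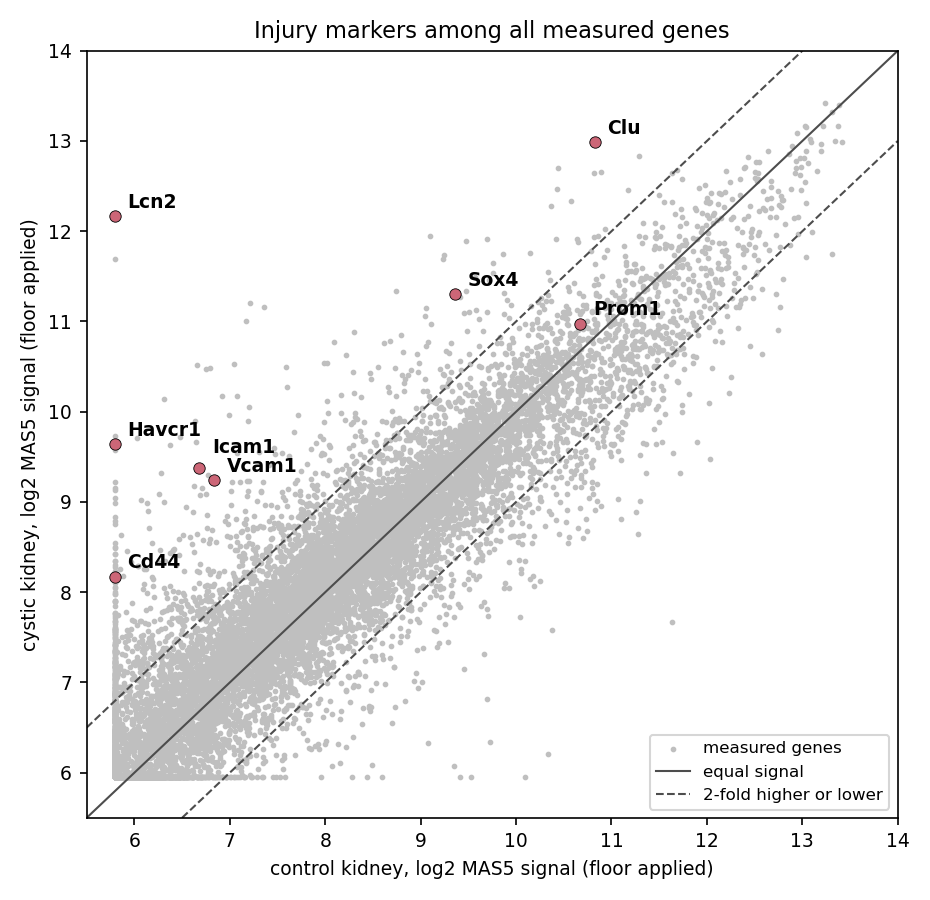
Log2 MAS5 signal of 12015 measured genes in the control kidney (x axis) and the cystic kidney (y axis), 1 array each, with signals under a floor raised to it and the injury markers in red. Lcn2, Havcr1 and Cd44 sit at the control floor, Icam1, Vcam1, Clu and Sox4 lie above the upper dashed line of a 2-fold difference, and Prom1 lies next to the line of equal signal.

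Among the markers above both floors, the log2 ratios were 2.70 for Icam1, 2.40 for Vcam1, 2.16 for Clu, 1.95 for Sox4 and 0.30 for Prom1. In the order of all 10668 genes above both floors, Icam1 was number 27, Vcam1 47, Clu 64 and Sox4 103 from the top, while Prom1 was number 3293. Neighbours in this order from Icam1 down to Sox4 differed by 0.30, 0.24 and 0.22, each less than the SD of 0.41 that the spread between probe sets gives for a difference of 2 genes. Only the gap of 1.64 between Sox4 and Prom1 was larger than that SD. The 3 markers read as bounds have no place in this order.

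Genes with a pair of signals like those of Lcn2 and Havcr1 were sought by distance in log2 signal over the 2 arrays. The control signals of Lcn2 and Havcr1 were under the floor, so beside other genes under it the distance rests on the cystic signal alone and gives no order. Lyz1, a lysozyme gene, was such a gene for Lcn2, with 51.0 in control and 3319 in cystic kidney. The others named for Lcn2, above both floors, were Lyz2, a near-identical copy of Lyz1 (148 and 2369) and Fgg, the fibrinogen gamma chain (144 and 2058.5). Probes may bind the transcripts of both lysozyme genes, so their separate values are uncertain. For Havcr1 they were Socs3, an inhibitor of cytokine signalling (28.3 and 766), and Npy6r (848 in cystic kidney), both under the control floor, and Dcdc2a, a doublecortin domain gene (65.1 and 838). A likeness over 2 arrays is a weak measure, since any gene with a like pair of signals meets it.

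Other genes known from tubular injury were set beside the markers. This list too was chosen with earlier results of these data known, so its counts are no independent evidence. In a list of 30, 23 were above both floors, and of these 14 rose and none fell. Among all genes above both floors 6.15% rose and 3.97% fell. The median log2 ratio of the list was 1.49, beside 0.08 for all such genes. Aoc1, a diamine oxidase, had a log2 ratio of 3.87 (signal 101 to 1472), Fgg 3.84 (144 to 2058.5) and Dcdc2a 3.69 (65.1 to 838). Not all members followed: Mdk, the growth factor midkine, had -0.74, the cytokine Il18 -0.35 and the metalloprotease Mmp7 -0.13. Keratins and other genes of scattered, progenitor-like tubule cells rose in 7 of 9 members above both floors, beside the same 6.15%, with a median of 1.44. Anxa3 had a log2 ratio of 2.70 and the intermediate filament gene Vim 2.46, and Krt19 was at least 7.97-fold higher. Cd24a, which is used with prominin 1 to mark these cells in human kidney, had 0.90 and Pax8, a kidney lineage factor, 0.63, both short of the limit as was Prom1.

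**Figure D3:**
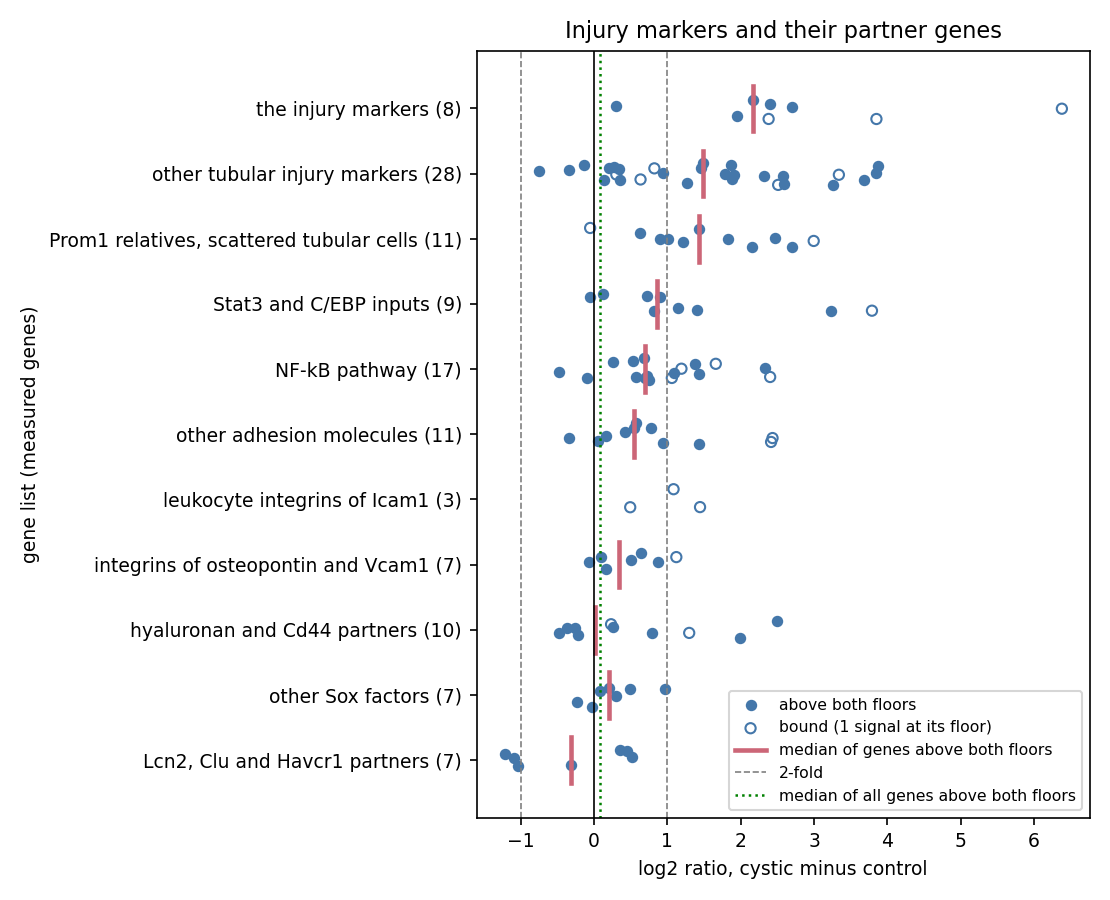
Log2 ratio (cystic minus control) of each measured gene in the injury markers and in lists of their partners and pathway genes, with open circles for bounds, red bars for the median of genes above both floors and a green line for the median of all such genes (0.08). The medians run from 2.16 for the injury markers to -0.31 for the partners of Lcn2, Clu and Havcr1.

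Receptors and partners of the markers were described in the same way, with the share of all genes above both floors (6.15% higher and 3.97% lower) as background. For Lcn2, Clu and Havcr1, 7 of 11 partner genes were measured, none rose and 3 fell. The 3 were Lrp2 and Cubn, given above, and Timd2, a relative of Havcr1, with a log2 ratio of -1.09. The lipocalin receptor Slc22a17 had 0.36, and the proteases Adam17 and Adam10, which shed membrane proteins, had 0.51 and 0.45. The list's median of -0.31 was 0.36 with the floor at the 60th percentile and 0.36 with no floor, so the list as a whole has no settled direction. Among integrins that bind osteopontin or Vcam1, none of 6 above both floors rose, a count near that background, and the median was 0.34. Itgb1 had 0.87, Itga9 0.64, Itgb6 0.16, Itgav 0.10 and Itga8 -0.07, and Itga5 was at least 2.18-fold higher. Itga4, the alpha4 chain that pairs to bind Vcam1, was under the floor on both arrays. All 4 leukocyte integrins that bind Icam1 were under the floor in the control kidney. Itgal, an alpha chain that binds Icam1, was under it on both arrays (47.7 and 53.5), while Itgb2 was at least 2.72-fold, Itgax at least 2.12-fold and Itgam at least 1.41-fold higher.

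Partners of Cd44 and hyaluronan went both ways, with 2 of 8 above both floors past the limit. Cd74, a chaperone of antigen presentation that works with Cd44 as a receptor, had a log2 ratio of 2.49 and the hyaluronan receptor Stab1 1.99, and the hyaluronan-binding Vcan was at least 2.46-fold higher. Mif, the ligand of Cd74, had -0.48, Hmmr -0.37 and Hyal2 -0.26. The median was 0.02, and its sign changed with the processing (-0.22 to 0.30). Of other adhesion molecules 1 of 9 above both floors rose, near the background of 6.15%, with a median of 0.54. It was Alcam, with 1.43, and the bounds for Ncam1 and Mcam were at least 5.40-fold and 5.33-fold. Jam3 had -0.34, Cdh6 0.06 and F11r 0.16, and the endothelial selectins Sele and Selp were under the floor on both arrays.

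Vcam1, Icam1 and Lcn2 are known targets of NF-kB. In the NF-kB pathway 4 of 13 genes above both floors rose, none fell and the median was 0.69. Among all genes above both floors, the background for both lists here, 6.15% rose, 3.97% fell and the median was 0.08. Whether NF-kB acted on the markers was not tested. Nfkbiz, an inducible co-activator, had a log2 ratio of 2.33 (108 to 543). Bcl3, a nuclear regulator of NF-kB, was at least 5.28-fold and the subunit gene Nfkb2 at least 3.16-fold higher. The kinase subunits Ikbkg and Ikbkb had -0.47 and 0.26, and the inhibitor Nfkbib -0.10. The others past the limit above both floors were Tnfaip3 (1.43), Birc3 (1.37) and Relb (1.10), a deubiquitinase, a ubiquitin ligase and a subunit of NF-kB. Among inputs of Stat3 and C/EBP factors, which are also known to act on Lcn2, 3 of 8 genes above both floors rose, with a median of 0.86. The oncostatin M receptor Osmr had 3.23 (89.4 to 842) and Stat3 1.40, Socs3 was at least 13.8-fold higher, and Il6st, Jak2 and Jak1 had 0.73, 0.12 and -0.05.

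Macrophage, fibroblast and smooth muscle markers moved with the injury markers, while the lists of other cell types did not. The part of any cell type in the results was not tested. Of 12 macrophage markers 8 were above both floors, and 7 of these rose. The background for each list here is the 6.15% of all genes above both floors that rose. Lyz2 (4.00), C1qc (3.84) and C1qa (3.48) were among the 7, while Csf1r (0.98) was short of the limit and C1qb had 1.06. The lowest bound was that of Itgam, given above. The summed signal of the list was 2151 in control and 10387 in cystic kidney, and no macrophage marker was at 0. All 10 fibroblast and smooth muscle markers rose, with a median of 1.93, and their summed signal went from 6255 to 26932, none at 0. Tagln (3.81), Col1a1 (2.85) and Acta2 (2.42) were the highest and Pdgfrb (1.55), Lum (1.48) and Dcn (1.42) among the lowest. Cd44, Icam1 and Vcam1 are known to be made by leukocytes, fibroblasts or endothelium as well as by tubule cells, and the arrays do not show which cells carried the signal.

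Lcn2 is also a granule gene of neutrophils. Of 11 neutrophil markers 9 had a probe set, and 7 of these, S100a8, S100a9, Camp, Ltf, Elane, Mpo and Cxcr2, were under the floor on both arrays. Csf3r had a log2 ratio of 0.34. Ngp had 60.6 in control and 48.4, under the floor, in cystic kidney, a bound from which no size can be read. The summed signal, which includes the values under the floor, was 243 in control and 284 in cystic kidney, none at 0. Endothelial markers, relevant to Vcam1 and Icam1, had no member past 2-fold among 10. That count is near the shares of all genes above both floors, 6.15% higher and 3.97% lower. Their median of -0.10 was 0.04 at the highest under other processing. Pecam1 had 0.43, Tie1 0.41 and Cdh5 0.41, and Esam -0.21, Flt1 -0.19 and Ehd3 -0.17, with summed signals of 4145.5 and 4288 and none at 0. Proximal tubule markers fell in 7 of 10, with a median of -1.19, and their summed signal went from 54596 to 26149, none at 0. Slc22a6 (-2.06), Gatm (-1.72) and Miox (-1.56) were the lowest and Slc34a1 (-0.72), Aqp1 (-0.68) and Slc27a2 (-0.52) the highest. All 10 were above the floor on both arrays, as the labelled tissue calls for.

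**Figure D4:**
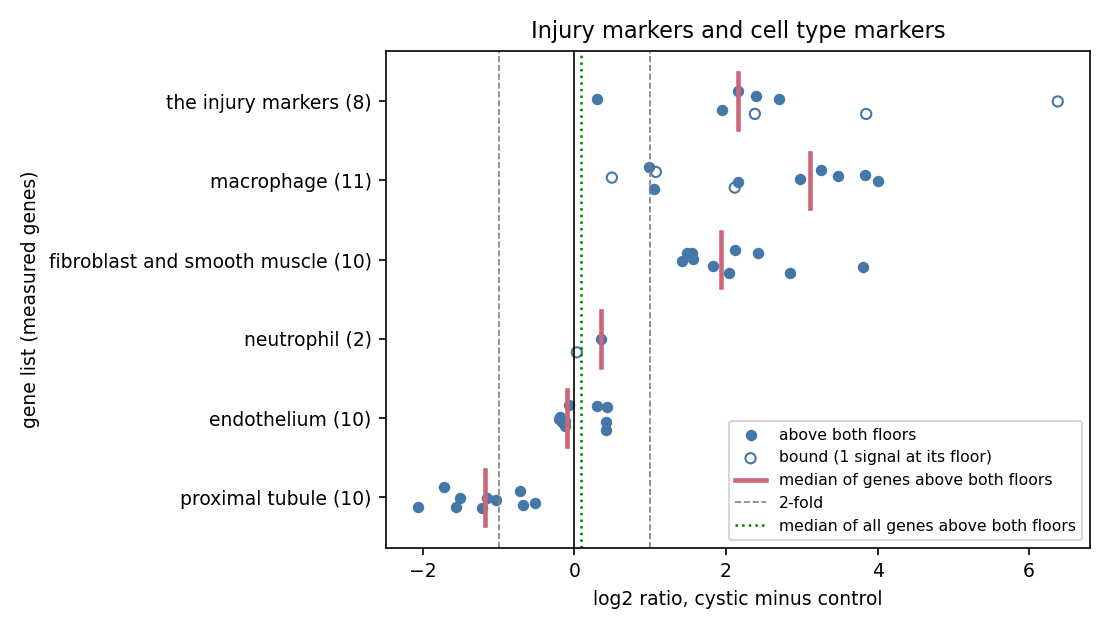
Log2 ratio (cystic minus control) of each measured gene in the injury markers and in 5 lists of cell type markers, with open circles for bounds and red bars for the median of genes above both floors. Macrophage and fibroblast markers lie to the right with the injury markers, endothelial markers lie around 0, and all 10 proximal tubule markers lie to the left.

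The log2 ratios of the markers were recomputed with other scalings, floors and summaries of probe sets. Lcn2, Havcr1, Clu, Cd44, Vcam1, Icam1 and Sox4 were past 2-fold in every setting that measured them, and Prom1 in none. The widest ranges were those of markers read as bounds, from 5.71 to 7.01 for Lcn2 and from 1.71 to 3.03 for Cd44. Icam1 stayed between 2.54 and 2.70 and Sox4 between 1.79 and 2.05.

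**Figure D5:**
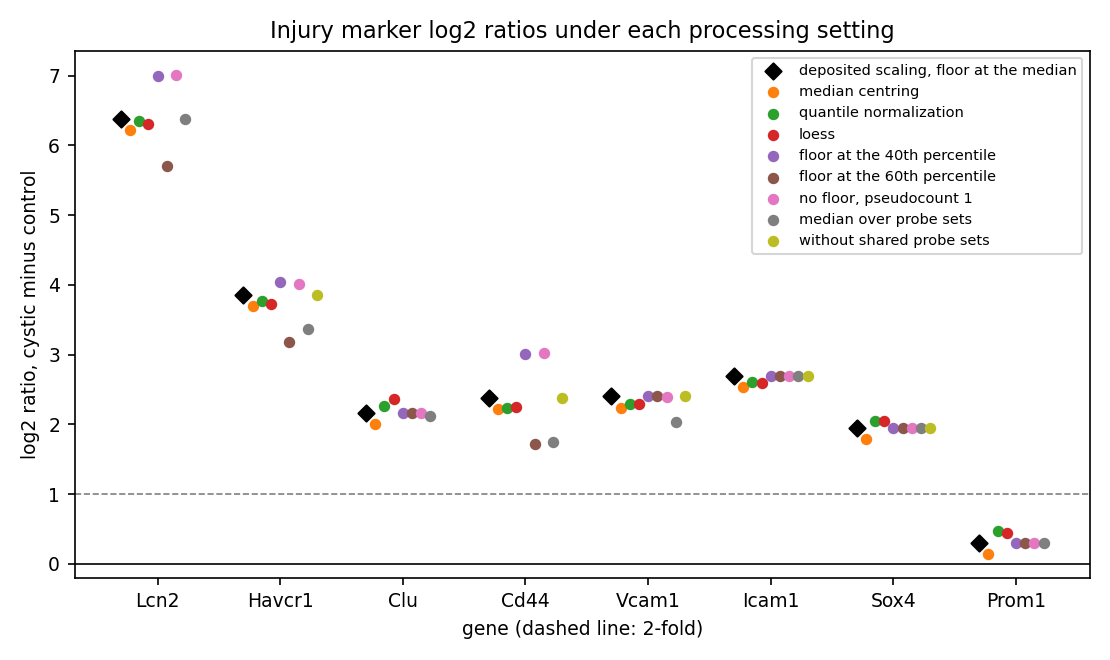
Log2 ratio (cystic minus control) of each measured injury marker under the deposited scaling with a floor at the median (black diamonds) and under each alternative (coloured points), 1 array per group. The 7 markers that rose stay above the dashed line of 2-fold, and Prom1 stays between 0.14 and 0.47.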

How the data were processed

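Total RNA of kidney was labelled with biotin, 1 array per group, and per the labels the authors computed the values with MAS5, with version, scaling target and detection calls not stated. What the authors deposited is an intensity per probe set on a linear scale, with 2% trimmed means of 178 (control) and 181 (cystic), and that scaling was kept. Of 45101 probe sets 64 controls were left out. The floor was each array's median signal, 55.4 and 61.9. A signal under it on 1 array was raised to it, which makes a ratio a bound, and a probe set under it on both was not measured. Groups came from the sample titles.

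Gene names came from the platform's annotation, updated by gene identifier in a RefSeq table of GRCm38.p6. Of them 34945 named 1 gene, 932 several and 9160 none, and a probe set with no gene listed is unnamed here, not without a gene. A gene took its brightest probe set. Rising and falling mean 2-fold or more, with no test. The steps were tested on simulated arrays. All 10 members were named, with up to 3 genes from each end of each list, all of a list with up to 6 measured, and the 3 genes nearest to Lcn2 and Havcr1. A few more were named after their values were seen, mostly genes under the floor. The members and lists were chosen with earlier results of these data known. Promoter windows, credited to RefSeq (GRCm38.p6), were listed for 7 of the 10 members. Alternatives were median centring, quantile normalization, loess (span 0.3), floors at the 40th and 60th percentile, no floor with a pseudocount of 1, the median over probe sets, no shared probe sets, and limits of 1.5-fold and 3-fold, in Python 3.11.15 with statsmodels 0.14.6.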

Additional observations from a re-analysis of the deposited data

How the results depend on the processing

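No paired analysis was possible because each group has 1 array, and no replicate could be left out. The count of 7 markers at least 2-fold higher and 0 lower held under the 3 other scalings, the floors at the 40th and 60th percentile, the median over probe sets and the limits of 1.5-fold and 3-fold. Without probe sets marked as shared it was 5 of 5 measured, since Lcn2, Clu and Prom1 have no other probe set. With no floor it was 8 of 9, because Sox9 then entered with signals that are under the floor. Of markers above both floors 4 of 5 were higher, and 8 of 9 with no floor, where Lcn2, Havcr1, Cd44 and Sox9 enter. The median of the measured markers was 2.39. With no floor it was 2.69, as was that of markers above both floors, since all 9 then count, and with the median over probe sets it was 2.07. Over all genes 848 rose and 454 fell. The counts were 1992 and 1520 with no floor, which adds dim genes, 1970 and 1297 at 1.5-fold and 274 and 116 at 3-fold. Median centring gave 609 higher and 672 lower, a higher share of 47.5% in place of 65.1%, and moved the median of all measured genes from 0.09 to -0.07, with markers from Prom1 (0.14) to Lcn2 (6.22) still above 0. Bounds depend on the floor: Havcr1 was 3.18 with the floor at the 60th percentile. Low signal in the control limits Lcn2, Havcr1 and Cd44, and low signal on both arrays limits Sox9.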

Other observations

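Marker lists of the other nephron segments were set beside the injury markers. Among all genes above both floors 3.97% fell, which is the background for the counts below. Loop of Henle and distal tubule markers had a median log2 ratio of -0.32 over 7 genes, and 2 fell, the calcium-binding genes Calb1 (-2.03) and Pvalb (-1.97). Slc12a3, the thiazide-sensitive cotransporter, had -0.94, Kcnj1 -0.24, Umod -0.09 and Cldn16 0.99. Collecting duct markers had a median of -0.18 over 7 genes, and the 2 that fell were Slc4a1 (-2.14) and Slc26a4 (-1.21), transporters of intercalated cells. The principal cell genes Scnn1g, Aqp2, Avpr2 and Aqp3 had 0.94, 0.29, -0.01 and -0.75. Podocyte markers had a median of -0.30 over 4 genes, with Nphs1 at -1.07, Podxl at -0.85, Wt1 at 0.25 and Synpo at 0.65. Of 9 lymphocyte markers with a probe set 8 were under the floor on both arrays, and Cd8a went from 79.5 to 34.2, under the floor.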
